A study of Mus musculus with 6 samples.

Results

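The J segments of the T cell receptor alpha locus were described by position in RNA from sorted CD4+CD8+ double-positive thymocytes. Members were the rows of the authors' normalized table whose symbol is Traj and a number, read with their raw counts: 55 genes of 43430 counted. The compared groups were 3 libraries from mice of genotype Mettl14fl/fl; CD4-Cre+ (KO) and 3 libraries from littermate controls labelled WT, all of strain C57BL/6. The product of Mettl14 binds that of Mettl3 to form the RNA N6-adenosine methyltransferase, and CD4-Cre deletes floxed alleles in thymocytes as they start to express Cd4. The labels give no age or sex, do not say whether the controls carry floxed alleles or the Cre, and leave unsaid whether the libraries are from different animals, so the spread between libraries may be partly technical. In bulk RNA, fewer cells that use a segment and less RNA per such cell cannot be told apart.

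The alpha chain of the receptor is assembled at the double-positive stage, when the Rag recombinase joins a V segment to a J segment, which is then spliced to the constant region, Trac. The first joins use J segments on the V side of the array, which have the highest numbers, and later joins on the same chromosome move toward Trac and the lowest numbers for as long as the cell survives without being selected. Promoters at the V-side end of the array transcribe it before any join, so a count in a J segment can come from a joined chain or from unjoined, germline RNA, and the deposited counts do not separate the sources. Traj18 is the segment that invariant natural killer T (iNKT) cells, which the series title names, join to Trav11.

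On mm10 the 55 members lie on the plus strand of chromosome 14 between 54155005 and 54218840, a span of 63836 bases, in strictly falling order of their numbers. The last base of Traj1 is followed after 1680 bases by Trac (54220521 to 54223097). The segments are 27 to 72 bases long, with a median of 61, and 0 of them overlap another gene in GENCODE M21. Of the 55, 49 are annotated as J genes and 6 as J pseudogenes, which are Traj61, Traj60, Traj36, Traj14, Traj8 and Traj1. The sequences below are from GENCODE M21 transcripts, 5′ to 3′ on the plus strand, and show the ends of the array, Traj18 and the segments with the lowest p in each direction. Traj61 is at chr14:54155005-54155076, Traj18 at chr14:54200777-54200842 and Traj1 at chr14:54218814-54218842 in that annotation, each a J exon. Capitals mark the stretch that in the reading frame of a J segment spells its conserved phenylalanine-glycine-any-glycine motif, where a search for its codons found one.
Traj61: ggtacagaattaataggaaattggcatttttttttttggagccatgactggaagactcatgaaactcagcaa
Traj60: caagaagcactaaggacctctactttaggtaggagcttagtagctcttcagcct
Traj59: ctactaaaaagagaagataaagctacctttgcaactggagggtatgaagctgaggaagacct
Traj58: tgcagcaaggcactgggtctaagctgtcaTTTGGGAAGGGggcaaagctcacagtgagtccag
Traj53: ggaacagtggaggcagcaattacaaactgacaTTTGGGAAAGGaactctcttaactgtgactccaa
Traj34: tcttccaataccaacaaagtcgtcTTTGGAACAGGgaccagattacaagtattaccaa
Traj18: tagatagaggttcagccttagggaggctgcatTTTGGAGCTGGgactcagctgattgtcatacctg
Traj3: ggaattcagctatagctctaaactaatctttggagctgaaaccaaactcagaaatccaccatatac
Traj2: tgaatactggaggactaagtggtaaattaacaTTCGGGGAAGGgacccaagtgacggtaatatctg
Traj1: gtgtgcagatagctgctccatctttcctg
A match to the motif's codons was present in 41 of the 55 members on the transcribed strand, and in the same number when both strands were searched. The search did not check the reading frame, so a match can be out of frame, as that of Traj7 is. All 41 were among the 49 annotated J genes, and 0 of the 6 pseudogenes held it. The other annotated J genes, Traj59, Traj44, Traj41, Traj38, Traj33, Traj20, Traj19 and Traj3, had no match. In the first 60 bases of 21888 protein-coding transcripts, searched as a background, a match was present in 0.845% on the transcribed strand and in 1.33% on either strand. Members with a match held a mean of 56.3% of the Traj counts in KO libraries and 60.7% in WT libraries, so a large part of the counts fell on segments without a match, the V-side end in particular.

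Counts assigned to genes were 29500254 to 33377056 per library, and the 55 members together took 1073, 1199 and 957 counts in KO replicates 1 to 3, against 1370, 1322 and 1091 in WT replicates 1 to 3. These are small numbers: 19 members averaged under 10 counts per library, and 7 averaged over 50. Markers of the sorted stage were abundant, with Cd4 at 2051 ± 183 CPM in KO and 1969 ± 171 CPM in WT, and Cd8a at 2993 ± 129 CPM in KO and 3114 ± 177 CPM in WT (SD, n = 3 each; CPM here is the read count scaled to the library's total by edgeR with TMM). The targeted gene was at 42.2, 40.3 and 36.4 CPM in KO libraries, against 52.1, 58.8 and 55.8 CPM in WT libraries. The groups did not overlap for Mettl14, but its log2 fold change of -0.49 (SE 0.086) was not called by edgeR (adjusted p = 0.289), while DESeq2 called it (adjusted p = 0.0020). WT replicate 1 lay farthest from the other libraries on the first principal component, at -29.3 against -7.32 to 18.8, and values that move with it are given with and without it.

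Summed over the array, the J segments were at 35.6, 40.6 and 29.7 CPM in KO libraries, against 40.1, 40.02 and 37.3 CPM in WT libraries. The means were 35.3 ± 5.48 CPM in KO and 39.1 ± 1.61 CPM in WT (SD, n = 3 each), and KO replicate 2 was the highest library of all, so the groups overlapped. Trac, the constant region to which every joined J is spliced, was at 232, 271 and 256 CPM in KO libraries, against 348, 258 and 238 CPM in WT libraries (log2 fold change -0.15, SE 0.14, edgeR adjusted p = 0.845; without WT replicate 1 it was 0.029). Relative to Trac, the array had 153, 150 and 116 counts per 1000 Trac counts in KO libraries, against 115, 155 and 157 in WT libraries. The difference in summed CPM was within the spread of the KO libraries but not of the WT libraries, and the shares below divide by the raw Traj counts given above.

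The array had high levels at both ends and low levels between. Per kilobase of segment, Traj59 had the highest mean over the 6 libraries, with 63.1 CPM per kilobase in KO and 56.1 in WT. Of its neighbours, Traj61 was at 45.7 CPM per kilobase in KO and 43.0 in WT, Traj60 at 47.1 in KO and 42.6 in WT, and Traj58 at 35.5 in KO and 29.0 in WT. At the other end, Traj1 had the next highest mean and was at 45.8 CPM per kilobase in KO and 61.8 in WT, Traj2 at 30.9 in KO and 52.7 in WT, and Traj3 at 25.5 in KO and 37.1 in WT. Traj4 and Traj6 came next on that side, at 21.1 and 14.7 CPM per kilobase in KO, against 29.9 and 25.4 in WT. The 42 members from Traj57 to Traj10 lay between 1.501 and 11.8 CPM per kilobase in KO, with a median of 5.45, and between 0.981 and 10.9 in WT, with a median of 5.63. The segments are short, so a length-scaled level favours the shortest, of which Traj1 is one. Across the 55 members, mean CPM was unrelated to length (Spearman 0.088) and to the share of G and C (Spearman -0.024), as a description over segments that share libraries.

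**Figure D1:**
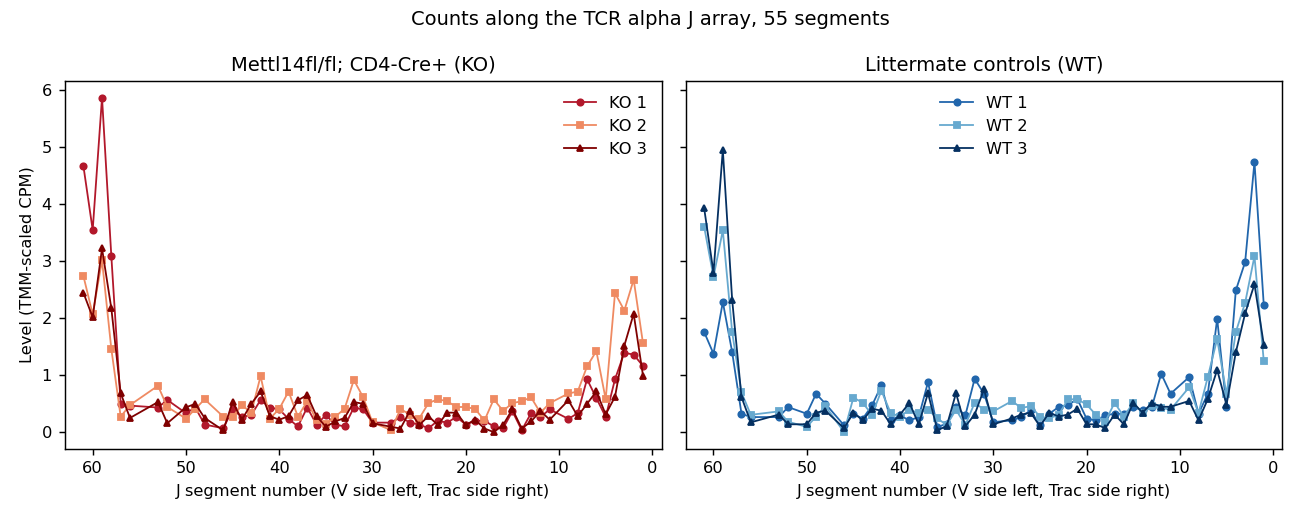
Level of each of the 55 J segments in TMM-scaled CPM (vertical axis) by J number (horizontal axis, V side at the left, Trac side at the right), with 1 line per library; KO libraries are in the left panel and WT libraries in the right. All 6 libraries are high from Traj61 to Traj58 and again from Traj3 to Traj1. KO replicate 1 is the highest at the V side (5.87 CPM for Traj59), and WT replicate 1 the highest at the Trac side (4.74 CPM for Traj2).

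At the V-side end the KO and WT libraries overlapped for every segment. Traj61, a pseudogene and the first segment of the array, was at 4.68, 2.74 and 2.45 CPM in KO libraries, against 1.76, 3.60 and 3.93 CPM in WT libraries. Traj60, also a pseudogene, was at 3.55, 2.07 and 2.01 CPM in KO libraries, against 1.38, 2.72 and 2.80 CPM in WT libraries. Traj59, the largest by count and annotated as a J gene without the motif, was at 5.87, 3.01 and 3.22 CPM in KO libraries, against 2.28, 3.54 and 4.95 CPM in WT libraries. In these segments KO replicate 1 was the highest library and WT replicate 1 the lowest, and of the other 4 libraries both KO libraries were below both WT libraries. Traj58 was at 3.08, 1.46 and 2.17 CPM in KO libraries, against 1.40, 1.76 and 2.32 CPM in WT libraries, with the same extremes. The log2 fold changes ran from 0.089 (SE 0.37) for Traj61 to 0.29 (SE 0.33) for Traj58, each smaller than its error. With KO replicate 1 left out they were -0.25 for Traj61, -0.17 for Traj60, -0.20 for Traj59 and -0.0028 for Traj58. With WT replicate 1 left out, Traj61 was at -0.20, Traj60 at -0.12 and Traj59 at -0.072, while Traj58 stayed above 0 at 0.14.

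At the Trac-side end the KO means were lower, with 1 library of each group again setting the extremes. Traj2 was at 1.36, 2.68 and 2.08 CPM in KO libraries, against 4.74, 3.09 and 2.60 CPM in WT libraries, so that KO replicate 2 lay just above WT replicate 3. Its log2 fold change was -0.77 (SE 0.33), with an edgeR p of 0.0474 that became 0.733 when adjusted, and was -0.48 with WT replicate 1 left out. Traj3, a J gene in which the motif letters are broken, was at 1.39, 2.13 and 1.52 CPM in KO libraries, against 2.99, 2.27 and 2.08 CPM in WT libraries, a log2 fold change of -0.54 (SE 0.26), or -0.37 with WT replicate 1 left out. KO replicate 2 overlapped WT replicate 3 here too. Traj1, a pseudogene next to Trac, was at 1.16, 1.56 and 0.992 CPM in KO libraries, against 2.22, 1.24 and 1.54 CPM in WT libraries, a log2 fold change of -0.43 (SE 0.31), or -0.17 with WT replicate 1 left out. Traj6 and Traj4 had log2 fold changes of -0.79 (SE 0.40) and -0.51 (SE 0.50), while Traj8 and Traj7, which lie among them, were at 0.60 (SE 0.47) and 0.20 (SE 0.39). Traj8, a pseudogene, was at 0.332, 0.711 and 0.279 CPM in KO libraries, against 0.322, 0.333 and 0.205 CPM in WT libraries, and its log2 fold change was 0.087 with KO replicate 2 left out.

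The question put to every segment was whether its level differed between the genotypes. Of the 55 members, 37 had enough counts to be tested, and 0 passed in edgeR's quasi-likelihood test over all genes, against a background of 0.0383% of the 13039 genes tested. DESeq2 also called 0 members, against 0.675% of genes, and 0 have an adjusted p under 0.05 in the authors' deposited table, against 0.717% of its rows. At an unadjusted p under 0.05 in edgeR there were 3 members of 37, which is 8.11% against 6.72% of all genes tested, and DESeq2 gave 1, which is 2.70% against 6.84%. Of these 3, Traj53 was higher in KO, against 3.41% of genes, and Traj34 and Traj2 were lower, against 3.31%. With no filter on low counts, 0 of all 55 members passed, against 0.137% of genes, and 3 had an unadjusted p under 0.05, which is 5.45% against 7.0% of genes. These shares are near the background. Standard errors of the log2 fold changes ran from 0.26 for Traj3 to 0.91 for Traj17 among the tested members. Sizeable changes of a single segment could therefore also go uncalled at this depth. Traj34, at a log2 fold change of -1.34, was not called (edgeR adjusted p = 0.684).

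Besides Traj2 and Traj8, the members with the lowest p in each direction lay between Traj53 and Traj12 and rested on few reads. Traj53 was at 0.431, 0.813 and 0.527 CPM in KO libraries, against 0.263, 0.363 and 0.307 CPM in WT libraries. These are 13, 24 and 17 counts in KO and 9, 12 and 9 in WT, and the groups did not overlap (log2 fold change 0.91, SE 0.38, edgeR adjusted p = 0.733). Traj34 was at 0.133, 0.271 and 0.186 CPM in KO libraries, against 0.439, 0.394 and 0.683 CPM in WT libraries, or 4, 8 and 6 counts in KO and 15, 13 and 20 in WT. It had the lowest unadjusted p of the tested members (0.0151; log2 fold change -1.34, SE 0.43, edgeR adjusted p = 0.684), and every KO library was below every WT library. Traj12 was at 0.265, 0.339 and 0.372 CPM in KO libraries, against 1.02, 0.424 and 0.444 CPM in WT libraries, also without overlap, with WT replicate 1 far above the others (log2 fold change -0.95, SE 0.45, and -0.41 with that library left out). Traj50 was at 0.332, 0.237 and 0.434 CPM in KO libraries, against 0.322, 0.0908 and 0.137 CPM in WT libraries, and overlapped (log2 fold change 0.84, SE 0.54, and 1.54 with WT replicate 1 left out). Traj28, named after its values were seen and too low to be tested with the filter, had 5, 1 and 3 counts in KO libraries, against 7, 18 and 7 in WT libraries. Without overlap between the groups, 1 of the 55 members was higher in KO, against 5.09% of the 21846 genes with a count, and 3 were lower, against 5.91%, which are 1.82% and 5.45% of the members. Over tested genes alone the backgrounds were 6.58% higher and 5.97% lower, with Traj53 on the higher side and Traj34 and Traj12 on the lower.

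**Figure D2:**
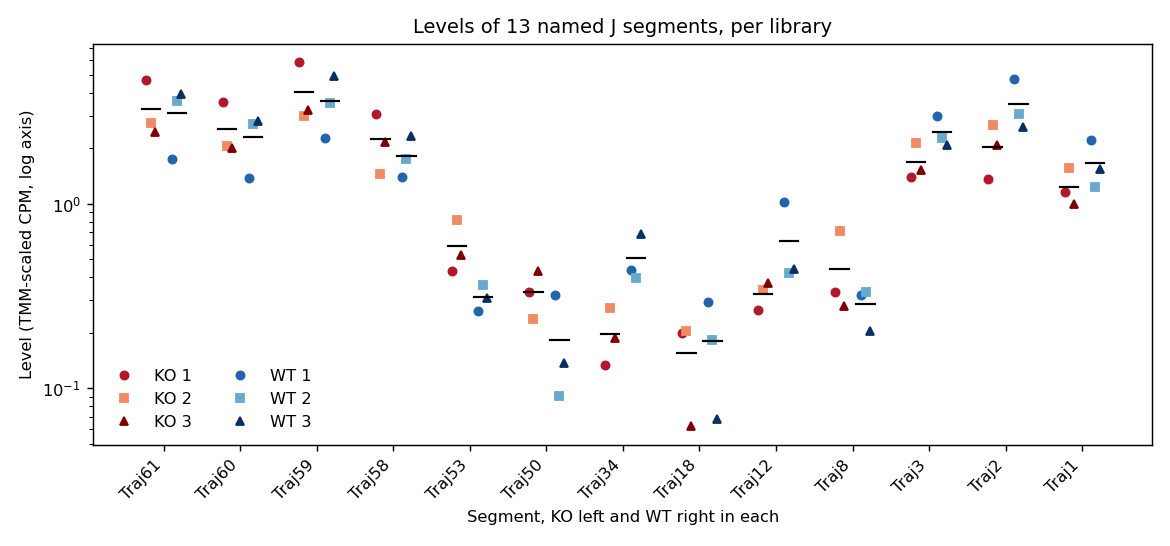
Level of 13 named J segments in TMM-scaled CPM on a log axis, with KO libraries at the left and WT libraries at the right of each segment; points are libraries and black bars group means. Only Traj53, Traj34 and Traj12 have groups that do not overlap, all with levels near or below 1 CPM. KO replicate 1 and WT replicate 1 stand at opposite extremes from Traj61 to Traj58 and at Traj12, Traj3 and Traj2.

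The 18 members below the filter averaged between 2.83 and 10 counts per library. They were Traj56, Traj46, Traj44 and Traj41 on the V side, Traj40, Traj38, Traj36, Traj35, Traj33, Traj30, Traj28, Traj27, Traj25 and Traj23 in the middle, and Traj20, Traj19, Traj18 and Traj16 on the Trac side. A count of 0 occurred for Traj46 in WT replicate 2 and for Traj17 in KO replicate 3. With 3 counts as the limit that a count of 0 allows, these correspond to at most 0.0908 and 0.0930 CPM.

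Traj18, the iNKT segment, was among the lowest of the array. It had 6, 6 and 2 counts in KO libraries, against 10, 6 and 2 counts in WT libraries, and ranked 53 of 55 by mean CPM per kilobase. Its share of all Traj counts was 0.559%, 0.500% and 0.209% in KO libraries, against 0.730%, 0.454% and 0.183% in WT libraries, with 95% Wilson intervals that reached from 0.0573% to 1.21% in KO and from 0.0503% to 1.34% in WT. The mean shares were 0.423% ± 0.188 in KO and 0.456% ± 0.273 in WT (SD, n = 3 each), a difference of -0.033 points (two-sided exact permutation test over 20 splits, p = 1.0, where 0.1 is the smallest the design allows). Pooled over libraries, the KO share was 0.911 times the WT share, with an exact 95% counting interval of 0.419 to 1.94. A difference of less than about that range was therefore not detectable for Traj18, and the sign of the difference in mean share turned with the library left out: it was 0.10 points with WT replicate 1 left out and 0.074 points with KO replicate 3 left out. Intervals here cover counting error alone, and the counts do not separate joined from germline RNA. Trav11, the V segment of the iNKT chain, is listed at 0 counts in all 6 libraries. Trav11 and near-identical V copies can lose reads with several alignments, so this does not measure its expression.

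The log2 fold changes tended to fall along the array from the V side to Trac. Among the 17 members from Traj61 to Traj41, 13 had a higher mean CPM in KO, and the median log2 fold change without a filter was 0.18. Among the 19 from Traj40 to Traj21, 8 were higher in KO, with a median of -0.18, and among the 19 from Traj20 to Traj1, 3 were higher in KO, with a median of -0.42. Over all 55 members 24 were higher in KO, or 43.6%, against 47.0% of genes with a count, and the median over all genes without a filter was -0.0028. The Spearman correlation of log2 fold change with J number was 0.60 (Pearson 0.56) over the 37 tested members and 0.59 over all 55. Neighbouring segments share the same 6 libraries and may share transcripts, so the points are not independent. The correlation was 0.54 without Traj61 to Traj58, and 0.45 to 0.69 with 1 library left out at a time. It was not computed with KO replicate 1 and WT replicate 1, the extremes of mean J number, both left out. Without these, mean J number was 32.4 in KO and 32.7 in WT. Single omissions therefore cannot show whether the trend holds without both.

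**Figure D3:**
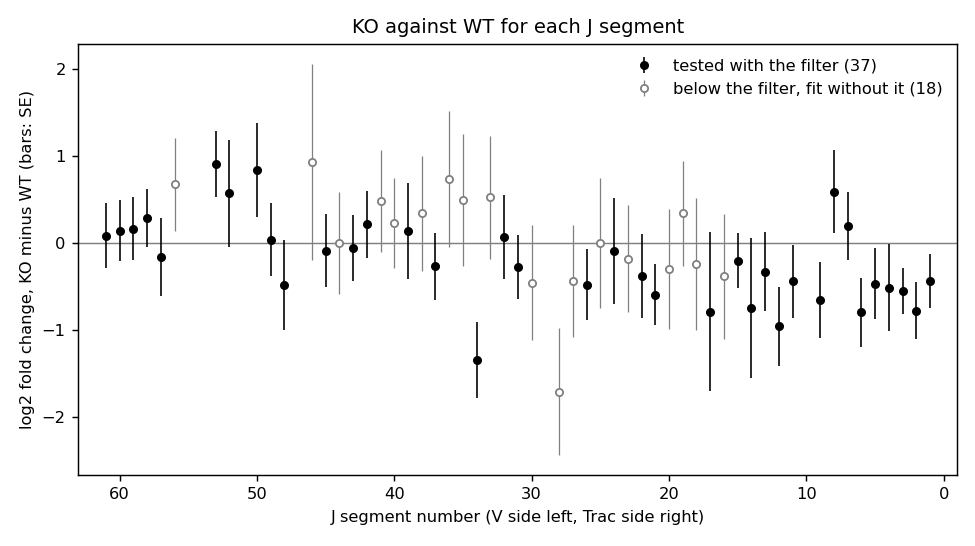
log2 fold change, KO minus WT, of each J segment (vertical axis, bars are standard errors) by J number (horizontal axis, V side at the left); filled points are the 37 tested segments and open points the 18 below the filter, fitted without it. Most points left of Traj40 lie above 0 and most right of Traj21 below 0, with Traj19, Traj8 and Traj7 as exceptions on the Trac side. Nearly all error bars are wide relative to the values.

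In shares of all Traj counts, the V-side band from Traj61 to Traj41 held 61.98%, 37.1% and 50.3% in KO libraries, against 29.3%, 41.1% and 47.3% in WT libraries. The means were 49.8% ± 12.4 in KO and 39.3% ± 9.12 in WT (SD, n = 3 each), a difference of 10.5 points, which is under the SD of the KO libraries and over that of the WT libraries. It was 4.42 points with KO replicate 1 left out, 5.56 with WT replicate 1 left out and 16.9 with KO replicate 2 left out. The KO mean without KO replicate 1 was 43.7%, against a WT mean of 44.2% without WT replicate 1. KO replicate 2 lay below WT replicates 2 and 3, so the groups overlapped. The middle band from Traj40 to Traj21 held 11.9%, 18.9% and 18.3% in KO libraries, against 17.9%, 17.3% and 16.3% in WT libraries. It was nearly level except in KO replicate 1, and the difference of -0.79 points was 1.44 with that library left out. The Trac-side band from Traj20 to Traj1 held 26.1%, 44.0% and 31.5% in KO libraries, against 52.8%, 41.5% and 36.4% in WT libraries, with means of 33.8% ± 9.16 in KO and 43.6% ± 8.38 in WT (SD, n = 3 each). The difference of -9.73 points is slightly over the SD of either group. It was -5.86 with KO replicate 1 left out, -5.12 with WT replicate 1 left out and -14.8 with KO replicate 2 left out. The KO mean without KO replicate 1 was 37.7%, against a WT mean of 39.0% without WT replicate 1. KO replicate 2 lay above WT replicates 2 and 3. Wilson 95% intervals of these shares were at most 3.16 points to either side, and in the V-side and Trac-side bands the highest and lowest libraries of each group had intervals that did not overlap, while in the middle band the intervals overlapped in all but KO replicate 1.

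**Figure D4:**
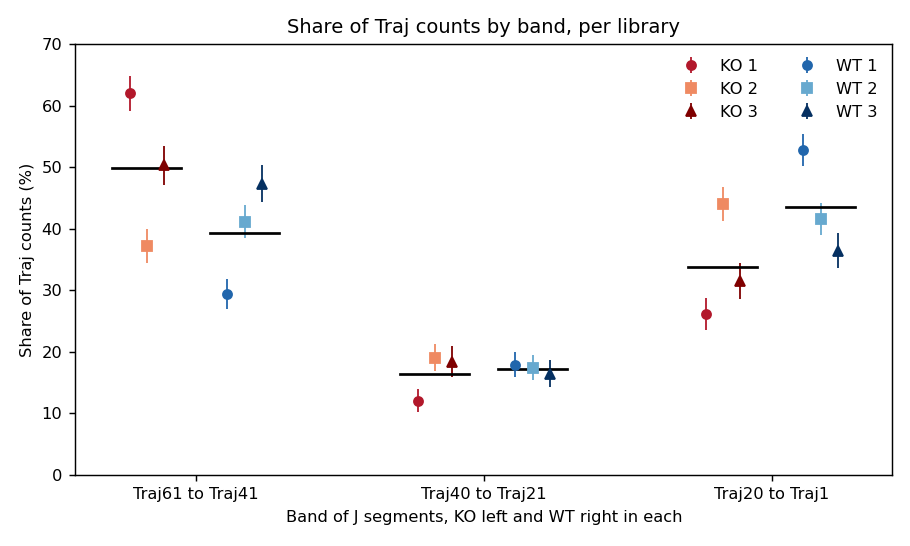
Share of all Traj counts in percent (vertical axis) in 3 bands of J number, with KO libraries at the left and WT libraries at the right of each band; points are libraries with 95% Wilson intervals and black bars are group means. The V-side share runs from 37.1% to 61.98% in KO and from 29.3% to 47.3% in WT, so the groups overlap in each band.

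The ends of the array were also taken alone, in bands set after the values were seen. Traj61 to Traj58, 4 segments, held 48.3%, 22.9% and 33.2% of Traj counts in KO libraries, against 17.01%, 29.05% and 37.6% in WT libraries. The difference in mean share was 6.91 points, but 0.16 with KO replicate 1 left out and 1.47 with WT replicate 1 left out. Traj9 to Traj1, 9 members, held 20.2%, 32.9% and 25.5% in KO libraries, against 42.0%, 31.8% and 28.2% in WT libraries, a difference of -7.82 points that was -4.84 with KO replicate 1 left out and -3.84 with WT replicate 1 left out. The 42 members between held 31.5%, 44.3% and 41.3% in KO libraries, against 41.02%, 39.1% and 34.2% in WT libraries.

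As a single position per library, the count-weighted mean J number was 40.8, 29.3 and 35.6 in KO libraries, against 24.5, 31.1 and 34.3 in WT libraries. Its means were 35.2 ± 5.77 in KO and 29.96 ± 5.02 in WT (SD, n = 3 each), and the difference of 5.28 is close to 1 SD. The J number at which the cumulative count passed 50% was 56, 26 and 41 in KO libraries, against 16, 30 and 37 in WT libraries. KO replicate 1 lay farthest toward the V side and WT replicate 1 farthest toward Trac, and the other 4 libraries overlapped. Leaving out KO replicate 1 gave a difference in mean J number of 2.48, leaving out WT replicate 1 gave 2.54, and leaving out KO replicate 2 gave 8.25. Without KO replicate 2 and WT replicate 1 together, chosen after the values were seen, it was 5.51. The KO mean without KO replicate 1 was 32.4, against a WT mean of 32.7 without WT replicate 1. With both of these extremes left out, the KO mean was thus slightly below the WT mean.

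**Figure D5:**
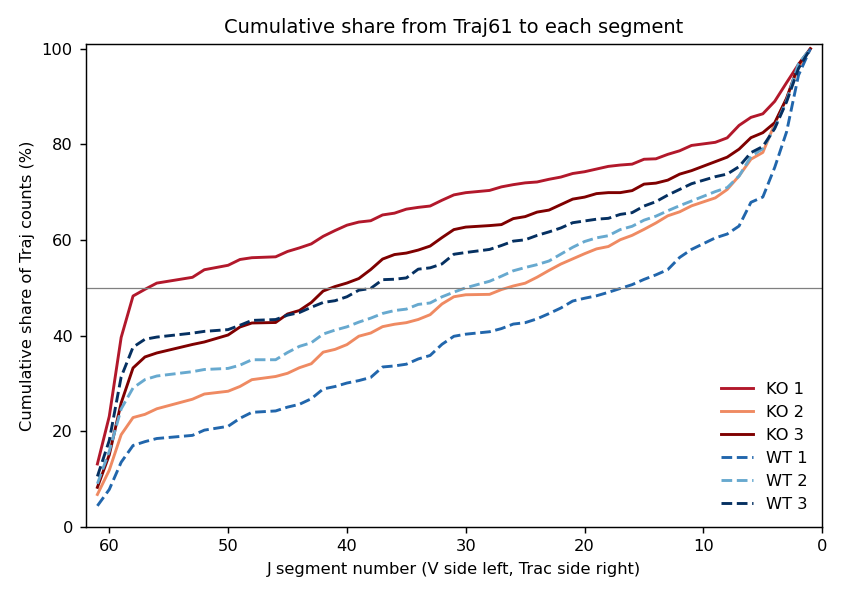
Cumulative share of Traj counts in percent (vertical axis) from Traj61 to each J number (horizontal axis, V side at the left), with solid lines for KO and dashed lines for WT libraries. The grey line at 50% is crossed at Traj56, Traj26 and Traj41 in KO and at Traj16, Traj30 and Traj37 in WT, and the lines of both groups interleave except for KO replicate 1 at the top and WT replicate 1 at the bottom.

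The replicates of each group differed in their J profiles by more than sampling noise. The chi-square of the 55 segment counts per degree of freedom was 3.42 over the KO libraries and 2.75 over the WT libraries. It was 4.595 between KO replicates 1 and 2, and 1.53 between WT replicates 2 and 3, the most alike pair of a group. Genes of dividing cells, a list chosen after the values were seen, moved with the profile in part. Mki67, which marks cycling cells, was at 2158, 1487 and 1834 CPM in KO libraries, against 970, 1907 and 2300 CPM in WT libraries, and the sum over 6 such genes was 4706, 3454 and 4242 CPM in KO, against 2390, 4462 and 5178 CPM in WT. The library lowest in these genes, WT replicate 1, also had the lowest mean J number, and KO replicate 2 was next lowest in both. The order did not match at the top, where WT replicate 3 was highest in these genes and KO replicate 1 in mean J number. The part of dividing cells in the J profile was not tested.

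The delta segments upstream of the array, which lie between the V segments and Traj61 and are removed by a V-to-J join, shared these extremes in part. Trdj1 was at 14.9, 8.54 and 10.7 CPM in KO libraries, against 5.44, 9.78 and 9.16 CPM in WT libraries (log2 fold change 0.49, SE 0.28, edgeR adjusted p = 0.77, and 0.27 with WT replicate 1 left out). Trdv5 was at 9.45, 6.71 and 5.83 CPM in KO libraries, against 3.48, 6.60 and 7.11 CPM in WT libraries (log2 fold change 0.36, SE 0.30, and 0.096 with WT replicate 1 left out). For both, KO replicate 1 was the highest library and WT replicate 1 the lowest, as for Traj61 to Traj58. Trdj2 was at 3.45, 1.80 and 1.24 CPM in KO libraries, against 1.38, 1.70 and 2.53 CPM in WT libraries, so KO replicate 3 was its lowest library. Its log2 fold change was 0.21 (SE 0.41), and that of Dad1, the gene beyond Trac, was 0.021 (SE 0.063).

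Genes of the recombination machinery were close to level. Of 17 tested, 0 passed in edgeR, 9 had a log2 fold change above 0 and the median was 0.014, against 48.9% above 0 and a median of -0.0040 over all genes tested. Rag2, a subunit of the recombinase, was at 380 ± 23.1 CPM in KO and 345 ± 11.9 CPM in WT, and Rag1 at 5092 ± 234 CPM in KO and 4835 ± 239 CPM in WT (SD, n = 3 each). Dclre1c, which encodes the Artemis nuclease that opens coding-end hairpins, had a log2 fold change of 0.14 (SE 0.078), and Nhej1, an end-joining factor, of 0.25 (SE 0.14). Poll, an end-joining polymerase, was at 1.49, 1.46 and 1.18 CPM in KO libraries, against 2.34, 2.09 and 1.71 CPM in WT libraries, without overlap (log2 fold change -0.57, SE 0.24, edgeR adjusted p = 0.733). Of 17 factors of the alpha enhancer, of the array's looped structure and of double-positive survival, 0 passed in edgeR, 12 were above 0 and the median log2 fold change was 0.034. Ikzf1, a lymphoid transcription factor, was at 0.16 (SE 0.081), Gata3 at -0.10 (SE 0.077), Nipbl, which loads cohesin, at 0.10 (SE 0.094) and Cbfb, the partner of Runx factors, at 0.14 (SE 0.13). Bcl2l1, whose product Bcl-xL prolongs double-positive survival, was at 332 ± 20.2 CPM in KO and 317 ± 11.8 CPM in WT (SD, n = 3 each).

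Markers of other cell types are given as sums of CPM over each list, of which 0 genes passed in edgeR. Over all genes tested, 3.41% were higher and 3.31% lower at an unadjusted p under 0.05. Double-negative markers, of cells that have not yet joined an alpha chain, summed to 201 to 274 in KO and 170 to 179 in WT, highest in KO replicate 1. At that p, 3 of 7 tested genes were higher and 1 lower, and Gata2 was at 0. Most of the sum was Notch3, at means of 136 CPM in KO and 98.7 CPM in WT, and Ptcra, at 51.0 and 39.9 CPM. Dtx1 was the other higher gene, at 42.1 CPM in KO replicate 1. Cd44 was the lower gene, at a log2 fold change of -0.52. Kit was at -0.33, Lyl1 at -0.36 and Il2ra at 0.25. Gamma-delta and innate lymphocyte markers summed to 9.91 to 13.6 in KO and 5.03 to 6.90 in WT, with 5 of 8 tested genes higher at that p, and Trdc was not used here. Mature single-positive markers summed to 367 to 404 in KO and 367 to 388 in WT. B cell markers summed to 803 to 847 in KO and 799 to 885 in WT, nearly all of it Ighm, and myeloid and dendritic cell markers to 91.3 to 124 in KO and 87.9 to 94.3 in WT, with 2 of 6 and 2 of 8 tested genes higher at that p. Their part in the J profile was not tested.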

How the data were processed

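RNA from 3 KO and 3 WT samples of sorted thymocytes was sequenced. The submitters' processing notes name mm10 as the build and list DESeq2, HTSeq, STAR 2.5.2 and Trimmomatic 0.33. How HTSeq was set for overlaps and strand, and with which annotation, is not given in the sources used. The authors deposited raw counts per gene, a normalized signal (counts divided by 1 size factor per library) and, from their own DESeq2 fit, log2 fold changes, p-values and adjusted p-values. The gene length, an other kind of value, is in the deposited count table. A read that crosses from a J segment into Trac touches 2 genes, and HTSeq's default mode would set it aside as ambiguous (0.653% to 0.701% of reads were); reads over V-J joins may not align fully. J counts therefore cover part of the alpha chain RNA, and in that mode may come largely from unspliced or germline RNA. Shares of Traj counts, that of Traj18 included, thus cannot be read as use in joined chains.

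Reads without a feature made up 12.3% to 15.2% and reads with several alignments 22.6% to 23.9%, kept out of library sizes. edgeR 4.0.16 (TMM, filterByExpr, quasi-likelihood test, Benjamini-Hochberg, threshold 0.05) was fitted on group over all genes, in R 4.3.3. Standard errors were derived from the fold change and the F statistic of each gene. DESeq2 1.42.0, other scalings, no filter, blocks and left-out libraries were alternatives. Shares are percent of Traj counts, with Wilson intervals (scipy 1.17.1). The fits were first tested on simulated data, where edgeR made 140 calls with 12 false and DESeq2 made 178 with 36 false. Of changes of 1.5-fold, edgeR recovered 35.8% and DESeq2 55.2%. The changed genes were drawn at random from all genes that passed the filter, so recovery at the low counts of the J segments was not measured. No pair of replicates was a duplicate: their counts differed by at least 17.3 in chi-square over degrees of freedom. All 55 members matched GENCODE M21 by ID, 51 with the same start and end. No promoter or genome sequence of the array was used, so recombination signals were not searched.

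Values are given for Traj18, the 6 members with the largest mean count, the highest and lowest numbered tested members, the 3 lowest p in each direction, Trac, Trav11 and Mettl14, and up to 4 genes of each locus list. The members, lists and bands were chosen with earlier results of these data known.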

Additional observations from a re-analysis of the deposited data

How the results depend on the processing

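No J segment was called under any of the 13 alternatives run. Over all genes the count of calls was 5; it was 88 with DESeq2, 30 with no filter on low counts, 4 to 23 with 1 library left out and 17 without WT replicate 1 and KO replicate 2. The difference in Traj18 share, -0.033 points, ran from -0.17 to 0.10 with 1 library left out and was 0.065 without that pair of libraries; with the filter it could not be computed. The correlation along the array (0.60) ran from 0.45 to 0.69 with 1 library left out. It was not computed without KO replicate 1 and WT replicate 1 together. With 1 library left out, log2 fold changes ran from -0.25 to 0.30 for Traj61, -0.17 to 0.32 for Traj60, -0.20 to 0.48 for Traj59, -0.0028 to 0.53 for Traj58 and -0.25 to 0.029 for Trac; Traj61 was at -0.082 without WT replicate 1 and KO replicate 2. Differences in band share and mean J number moved by less than 1 SD of the replicates under every alternative run, left-out libraries included. With 1 library left out, the V-side difference ran from 4.42 to 16.9 points and the Trac-side difference from -14.8 to -5.12. The middle difference ran from -2.07 to 1.44 points, and that of mean J number from 2.48 to 8.25. The cause of these shifts was not tested. Mettl14 had an adjusted p of 0.0020 in DESeq2. Same-numbered libraries correlated at -0.24, 0.059 and 0.28 in their deviations from the group means, and the main fit did not treat the numbers as pairs. Correlations over so few libraries cannot settle whether they are pairs. The name of the authors' deposited fit holds the word paired without saying what was paired, so their model may differ from the group fit used here. With the replicate block edgeR called 5 genes and 0 members. In a balanced design the block cannot change a difference of group means, so those of mean J number (5.28), V-side share (10.5 points), middle share (-0.79), Trac-side share (-9.73) and Traj18 share (-0.033) are the same by construction; the correlation was 0.59 and the summed level -0.16 (log2). Depth limits single segments most: 19 of 55 average under 10 counts.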

Other observations

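GENCODE M21 names 60 J segments, of which 55 are in the authors' normalized table. Counts outside it were low: Traj51 had 5, 2 and 0 counts in KO libraries and 2, 0 and 0 in WT libraries, Traj54 had 1, 4 and 1 in KO and 2, 0 and 0 in WT, Traj55 had 0, 0 and 0 in KO and 1, 2 and 0 in WT, and Traj29 had 0, 0 and 0 in KO and 2, 4 and 0 in WT. Traj47 was not used here.

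The 6 pseudogene members took 27.8%, 19.3% and 20.5% of Traj counts in KO libraries, against 15.3%, 21.2% and 23.7% in WT libraries. Traj61, Traj60 and Traj1, at the ends of the array, held most of them, while Traj36 had 1 to 9 counts in each library. The number of equally used segments that would give the same evenness was 14.1, 28.9 and 22.3 in KO libraries, against 23.3, 23.9 and 18.3 in WT libraries, lowest in KO replicate 1, where 4 segments held 48.3% of the counts.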
